A study of Homo sapiens with 6 samples.

Results

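Collagens are the structural proteins of the extracellular matrix, and the genes described here are the 44 protein-coding genes whose symbols have the form COL, a type number, A and a chain number. They were taken by symbol from the 60651 gene identifiers of the count files and lie on 17 chromosomes. By the structure their chains are known to build, 11 were counted as fibrillar, 6 as basement membrane and 27 as other collagens. RNA was sequenced from SK-N-AS, an established neuroblastoma cell line without MYCN amplification, which carried a tetracycline repressor and a MYCN gene under its control. The 3 libraries labelled ETOH are the control group and the 3 libraries labelled Tet are the MYCN-induced group, which received tetracycline. The labels of both groups give 120 h (5 d). No library had tetracycline without the MYCN gene, so an effect of tetracycline itself cannot be told apart from one of MYCN. Both groups carried the same expression system and were kept as single clones under G418 and blasticidin. The labels do not say how many clones were used, and a response of 1 clone cannot be told apart from a response of the line. The labels do not say whether the libraries came from separate cultures, and the study describes the replicates of this experiment as biologically independent.

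After depletion of ribosomal RNA, between 64500589 and 102249336 read pairs were counted on exons per library. MYCN itself was at 30.3, 35.5 and 32.4 CPM (counts scaled to library size after TMM normalisation) in the controls and at 211, 221 and 199 CPM in the induced libraries. Levels, rises and falls given here are relative to the RNA counted in a library, and amounts per cell were not measured. The study points out that high MYCN raises transcription broadly, which can make an unchanged transcript look lower. Adrenergic neuroblastoma markers summed to between 424 and 564 TPM (a level scaled to exon length and to the sum of its library) over all 6 libraries, and mesenchymal ones to between 185 and 244 TPM, with CD44 at 0 counts throughout. Summed Schwann cell markers reached at most 5.21 TPM and endothelial markers at most 0.338 TPM. On the first principal component MYCN-induced replicate 3 (69.1) lay far from induced replicates 1 and 2 (14.4 and 13.1), and the controls lay between -40.3 and -25.9. For several genes the fit without that library is given too, and the fibrillar and fibroblast marker sums are given per library.

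Each collagen molecule is a triple helix of 3 alpha chains. Chains are hydroxylated and folded in the endoplasmic reticulum, exported, trimmed at their ends by proteases and cross-linked outside the cell. Fibrillar collagens form the tensile fibrils of connective tissue, type IV collagens form the sheet of basement membranes, and the other types coat fibrils, form beaded filaments or span the cell membrane. In neuroblastoma tumours, matrix is laid down by the Schwannian stroma, and cultured neuroblastoma cells are known to make collagens of their own.

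Pairs of type IV chains are transcribed in opposite directions from shared promoters, and the comparison of neighbouring chains made further on turns on these pairs. Shown are bases between the RefSeq starts of COL4A1 and COL4A2 and those before the starts of COL4A5, COL4A6 and COL25A1, the collagen with the smallest p-value. They are taken from RefSeq on GRCh38.p14, from at most 250 bases before a start, and leave out any base of an exon counted in the files. Each runs 5′ to 3′ on the strand given, and capitals mark matches to the letters listed after them.
COL4A1-COL4A2, chr13:110307158-110307257, plus strand: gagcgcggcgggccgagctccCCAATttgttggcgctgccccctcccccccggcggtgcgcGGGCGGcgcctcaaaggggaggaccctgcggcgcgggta
COL4A5, chrX:108439588-108439837, plus strand: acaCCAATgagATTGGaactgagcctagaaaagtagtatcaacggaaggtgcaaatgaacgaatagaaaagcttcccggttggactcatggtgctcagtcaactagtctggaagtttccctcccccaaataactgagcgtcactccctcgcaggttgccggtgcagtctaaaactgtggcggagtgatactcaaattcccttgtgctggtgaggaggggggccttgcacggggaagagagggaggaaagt
COL4A6, chrX:108439498-108439708, minus strand: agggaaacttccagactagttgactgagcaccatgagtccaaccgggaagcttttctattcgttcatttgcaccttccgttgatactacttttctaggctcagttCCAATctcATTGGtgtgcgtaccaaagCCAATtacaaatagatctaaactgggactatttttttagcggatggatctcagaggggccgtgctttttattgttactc
COL25A1, chr4:109302753-109302908, minus strand: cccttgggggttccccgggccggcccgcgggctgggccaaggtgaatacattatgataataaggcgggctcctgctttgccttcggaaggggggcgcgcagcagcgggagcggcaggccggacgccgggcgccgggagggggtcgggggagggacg
The letters searched on both strands were the E-box CACGTG, the pentamer CCAAT, the hexamer TATAAA of TATA boxes and the GC box GGGCGG, and no match shown overlaps another. The stretch between the starts of COL4A1 and COL4A2 held 1 CCAAT and 1 GGGCGG. That of COL4A5 held 2 CCAAT and that of COL4A6 held 3, and 121 bases belong to both, read on opposite strands. COL25A1 held none of the 4 in the stretch shown. RefSeq promoters were at hand for 32 of the 44 collagens, in 44 windows of 250 bases before a start. CACGTG occurred in 0 of these 44 windows, against 6.34% of 35116 promoters of all genes, and CCAAT in 27.3% against 32.0%. TATAAA occurred in 18.2% of the collagen windows against 10.7% of all promoters, and GGGCGG in 54.5% against 42.6%. A match is only a run of letters, and its absence says nothing of a factor. The 12 collagens without an entry were COL1A1, COL1A2, COL2A1, COL3A1, COL5A2, COL6A1, COL6A5, COL8A1, COL9A3, COL14A1, COL20A1 and COL22A1.

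Levels between genes were compared in TPM. The collagen transcriptome of these cells was carried by a pair of fibrillar genes: COL1A1, the main chain of type I collagen, ranked 66 among 19928 protein-coding genes by mean TPM, and COL3A1, the only chain of type III collagen, ranked 84. Together they made up between 61.8% and 72.8% of all collagen TPM in a library. The level of COL1A1 was 314 ± 44.4 TPM in controls and 270 ± 87.9 TPM in induced cells (SD, n = 3 each), and that of COL3A1 was 296 ± 23.8 TPM and 211 ± 49.97 TPM (SD, n = 3 each). The difference between them in the controls was within their spread. A wide gap separated them from COL5A1, a regulator of fibril width, at 43.6 ± 4.37 TPM in controls (SD, n = 3). Below it, COL4A1, COL4A2, COL6A1, COL25A1, COL6A6, COL26A1, COL6A2, COL4A5 and COL19A1 had mean control levels between 10.1 and 25.7 TPM, and neighbours in this order did not differ by more than their spread, except COL19A1, whose control values lay below all those of COL4A5. Over all libraries 11 collagens had a mean of at least 10 TPM, 18 of at least 1 TPM and 26 of less than 1 TPM.

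**Figure D1:**
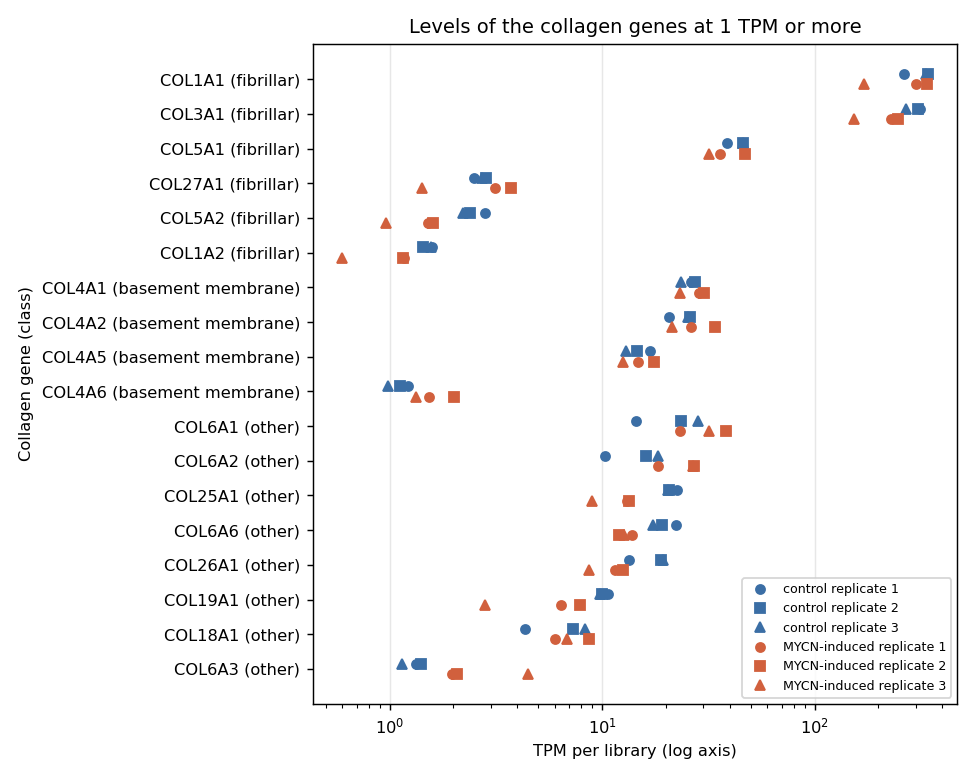
Level of the 18 collagen genes with a mean of at least 1 TPM, on a log axis, with 1 symbol per library (blue control, orange MYCN-induced). COL1A1 and COL3A1 stand apart at the top. In TPM induced replicate 3 is the lowest of the 6 libraries for 11 of the 18 genes, COL1A1, COL3A1 and COL25A1 among them. It is the highest for 1, COL6A3. COL4A1 and COL4A5, lowest in induced replicate 3 by TPM, were lowest in control replicate 3 by TMM-normalised CPM (221 and 98.2 CPM).

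Of the 44 collagens, 38 passed the count filter (10 fibrillar, 6 basement membrane and 22 other). COL5A3, COL9A2, COL15A1, COL21A1, COL22A1 and COL23A1 did not, with at most 11 counts in any library, so a change in them was not detectable at this depth. At an adjusted p under 0.05, 6 of the 38 were called, 5 lower and 1 higher in MYCN-induced cells. The background among 29086 genes tested was 3.4% called, 2.38% lower and 1.02% higher. COL25A1, COL5A2, COL6A5, COL3A1 and COL6A6 fell, and COL4A6 rose. Of the 38, 18 had a log2 fold change above 0 and 20 below 0, with a median of -0.030, beside 49.9% above 0 and a median of -0.00038 over all genes tested. The 3 induced libraries lay outside the range of the 3 controls for 16 collagens, 13 of them lower and 3 higher, whereas 14.7% of all genes did so downwards and 11.5% upwards. Without a correction for multiple tests, 12 were lower and 5 higher at p under 0.05, against 10.6% and 8.13% of all genes. The counts describe this list only and no test over the list was made. Of the called collagens, COL3A1 alone shares exon bases with another annotated gene, 1 base with MIR3606 on its own strand.

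**Figure D2:**
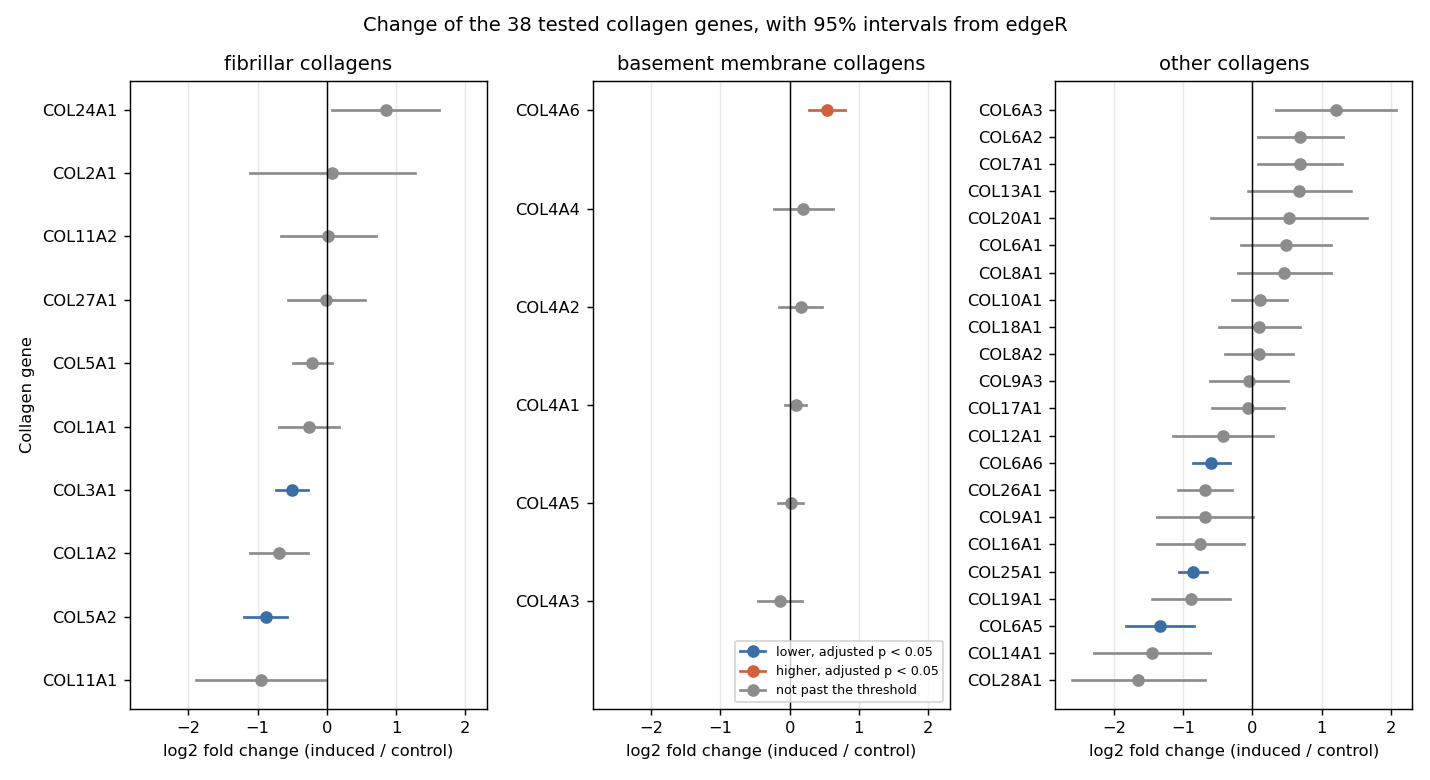
Log2 fold change (MYCN-induced over control) of the 38 tested collagen genes with its 95% interval, by class. The called genes are COL3A1, COL5A2, COL6A6, COL25A1 and COL6A5 on the lower side and COL4A6 on the higher side, and the grey intervals show how much room the spread leaves for the others.

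Of the 10 fibrillar collagens tested, 2 fell (COL3A1 and COL5A2), none rose, and 8 did not pass the test, with log2 fold changes between -0.96 (COL11A1) and 0.85 (COL24A1) among those 8. Without induced replicate 3 these 2 were -0.54 and 0.38. The median log2 fold change of the class was -0.23, and 7 of 10 were below 0. COL3A1 (ENSG00000168542.16, chr2:188974373-189012746, plus strand) was at 1221, 1272 and 1161 CPM in the controls and at 923, 915 and 733 CPM in the induced libraries. All induced values were below all control values. Its log2 fold change was -0.51 (SE 0.10, edgeR adjusted p = 0.0396), so that its fitted level fell by 29.6%. The call did not outlast most omissions of a library, with adjusted p (edgeR) of 0.129, 0.199 and 0.119 without control replicate 1, 2 or 3 and of 0.0882 and 0.0652 without induced replicate 1 or 2. Without induced replicate 3 the adjusted p (edgeR) was 0.0104. The call was also lost when libraries were scaled by their size only (edgeR adjusted p = 0.0678). The direction stayed downwards in each of these fits.

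COL5A2 (ENSG00000204262.14, chr2:189031898-189225312, minus strand) encodes the second chain of type V collagen, which nucleates type I fibrils. Its level was 11.97, 10.70 and 10.39 CPM in the controls and 6.63, 6.36 and 4.97 CPM in the induced libraries, again without overlap. The log2 fold change was -0.88 (SE 0.13, edgeR adjusted p = 0.0175), so that its level fell by 45.7%. Without control replicate 1, 2 or 3 the adjusted p (edgeR) was 0.0740, 0.10004 and 0.0723, and without induced replicate 1 it was 0.0519. Without induced replicate 2 or 3 it was 0.0463 and 0.00706. COL3A1 and COL5A2 are neighbours on chromosome 2, tail to tail and 19151 bases apart.

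The most abundant fibrillar chain did not pass the test. COL1A1 was at 1367, 1892 and 1935 CPM in the controls and at 1609, 1660 and 1081 CPM after induction, so the groups overlapped. Its log2 fold change of -0.26 had a 95% interval from -0.69 to 0.18 (edgeR adjusted p = 0.530), which leaves room for a sizeable loss as well as for a small gain. Without induced replicate 3, the lowest of the 6 libraries, it was -0.077 (edgeR adjusted p = 0.798). Its partner COL1A2, the other chain of type I collagen, was far rarer, at 1.53 ± 0.0781 TPM in controls and 0.974 ± 0.326 TPM in induced cells (SD, n = 3 each). COL1A2 was at 9.89, 9.56 and 10.9 CPM in the controls and at 7.54, 6.79 and 4.55 CPM in the induced libraries. These groups did not overlap, yet the log2 fold change of -0.68 (SE 0.18) missed the threshold (edgeR adjusted p = 0.0914). Leaving out induced replicate 3, the lowest of the 6, brought it to -0.49 with an adjusted p of 0.0331 from edgeR. With any other library left out, the adjusted p of COL1A2 was between 0.118 and 0.263 (edgeR). COL5A1, the partner of COL5A2, was at 249, 316 and 329 CPM in the controls and at 237, 287 and 249 CPM after induction. Its groups overlapped, with a log2 fold change of -0.21 (95% interval -0.49 to 0.069, edgeR adjusted p = 0.409).

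Summed over the class, fibrillar collagens reached 621, 703 and 658 TPM in the controls and 573, 640 and 360 TPM in the induced libraries. The sums overlapped, and the lowest belonged to induced replicate 3. Sums of 7 fibroblast markers were between 165 and 193 TPM in the controls and 139, 162 and 92.5 TPM in the induced libraries. Of these 7, decorin (DCN) was lower and FAP was higher past the threshold, 4 were tested without passing and DPT was too low to be tested. Lumican (LUM) and decorin carried most of the sum and of its fall. Their means were 122 and 29.3 TPM in controls and 94.8 and 12.8 TPM after induction. PDGFRA was at 13.4 TPM in controls and 13.1 TPM after induction, and PDGFRB at 12.3 and 9.77 TPM. THY1 and FAP, both below 1 TPM, had log2 fold changes of 0.41 and 1.21. Decorin and lumican, a pair of abundant proteoglycans on that list, are also matrix partners of collagen and are counted there below. The RNA came from a cell line, so the fibroblast markers describe its own cells and not fibroblasts among them. The part of any shift in these markers in the fibrillar result was not tested. In bulk RNA, fewer cells in a given state and less RNA per cell cannot be told apart.

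Among the basement membrane collagens, COL4A6 rose and none fell. COL4A6 (ENSG00000197565.16, chrX:108155607-108439497, minus strand) encodes a chain that joins COL4A5 in the basement membranes of smooth muscle and some epithelia. Its level was 6.53, 6.36 and 5.83 CPM in the controls and 8.43, 10.1 and 8.70 CPM in the induced libraries. Every induced value was above every control value. The log2 fold change was 0.54 (SE 0.11, edgeR adjusted p = 0.0453), a rise of 45.7%. This call sat close to the threshold: the adjusted p (edgeR) was 0.122, 0.213 and 0.182 without control replicate 1, 2 or 3, and 0.0892 and 0.0985 without induced replicate 1 or 2. Without induced replicate 3 it was 0.0248. It was 0.0805 with library size as the only scaling and 0.0649 with upper-quartile scaling (both edgeR). The direction was upwards in all of these.

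None of the other chains of type IV collagen passed the test. COL4A1 and COL4A2 assemble into the ubiquitous network of basement membranes. They lie head to head on chromosome 13 with 126 bases between their RefSeq starts, the interval printed above in part. In the annotation used for counting the genes overlap, as COL4A2 begins at base 110305812 and COL4A1 ends at base 110307157. COL4A1 was at 223, 246 and 221 CPM in the controls and at 248, 242 and 241 CPM after induction, with a log2 fold change of 0.086 (95% interval -0.067 to 0.24, edgeR adjusted p = 0.547). COL4A2 was at 229, 308 and 313 CPM against 302, 358 and 291 CPM, with a log2 fold change of 0.16 (95% interval -0.15 to 0.47, edgeR adjusted p = 0.582). Both groups overlapped for both genes. COL4A5, which is mutated in Alport syndrome, is transcribed away from COL4A6, with 379 bases between their RefSeq starts. Its values of 115, 106 and 98.2 CPM in the controls and 104, 114 and 105 CPM in the induced libraries lay side by side. The log2 fold change was 0.016 (95% interval -0.17 to 0.20, edgeR adjusted p = 0.943), and its sign changed with library size or upper-quartile scaling. COL4A3 and COL4A4, the remaining head-to-head pair, were low, at 0.264 ± 0.0390 and 0.105 ± 0.00892 TPM in controls (SD, n = 3 each). Their log2 fold changes were -0.14 and 0.20, and neither passed the test. COL4A3 shares 838 exon bases (9.24%) with MFF-DT on the opposite strand, and the files were counted without strand, so its value is uncertain. The class summed to 66.0 ± 3.13 TPM in controls and 71.6 ± 12.7 TPM in induced cells (SD, n = 3 each).

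**Figure D3:**
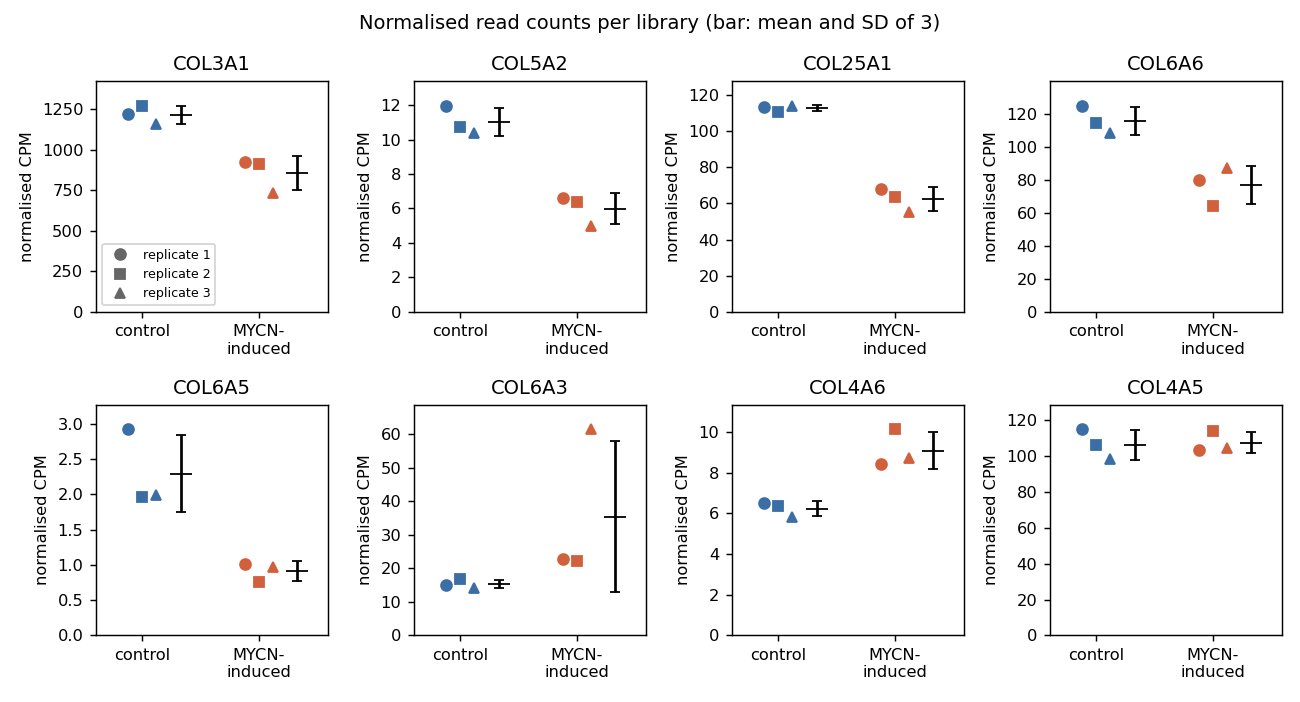
Normalised CPM per library of COL3A1, COL5A2, COL25A1, COL6A6, COL6A5, COL6A3, COL4A6 and COL4A5, each panel starting at 0, with the mean and SD of 3 libraries beside the points. Control and induced points are separate in every panel but that of COL4A5, and induced replicate 3 stands far above the others for COL6A3.

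Of the 22 other collagens tested, 3 fell, none rose and 19 did not pass the test, with a median log2 fold change of -0.060. The clearest fall was that of COL25A1 (ENSG00000188517.16, chr4:108808725-109302752, minus strand), a transmembrane collagen of neurons also known as CLAC-P, whose shed form binds amyloid and which takes part in motor neuron innervation. It was at 113, 111 and 114 CPM in the controls and at 68.0, 63.7 and 55.1 CPM in the induced libraries. The controls lay close together and far above the induced values. Its log2 fold change was -0.86 (SE 0.086, edgeR adjusted p = 0.00460), so that its level fell by 44.8%. It passed the threshold in all 13 other fits tried, and its adjusted p (edgeR) ran from 0.00169 to 0.0426 when 1 library was left out. In TPM it went from 21.2 ± 1.10 to 11.8 ± 2.48 (SD, n = 3 each). The other tested transmembrane collagens, COL13A1 and COL17A1, were low and did not pass the test, with log2 fold changes of 0.67 and -0.066.

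Type VI collagens form beaded filaments around cells, and of the 5 chains tested 2 fell, COL6A5 and COL6A6, and none rose. The classical molecule consists of COL6A1, COL6A2 and COL6A3, while COL6A5 and COL6A6 encode chains that can take the place of COL6A3. COL6A5 (ENSG00000172752.14, chr3:130345516-130484844, plus strand) was at 2.92, 1.96 and 1.99 CPM in the controls and at 1.02, 0.751 and 0.967 CPM after induction, without overlap. The log2 fold change was -1.34 (SE 0.21, edgeR adjusted p = 0.0197), so that it fell by 60.4%. Its adjusted p (edgeR) was 0.0539, 0.0750 and 0.0652 without control replicate 1, 2 or 3 and 0.0644 and 0.0595 without induced replicate 1 or 2. COL6A5 passed without induced replicate 3 (edgeR adjusted p = 0.0199). COL6A6 (ENSG00000206384.10, chr3:130560334-130678155, plus strand), next to it in the same orientation and 75489 bases away, was at 125, 114 and 108 CPM in the controls and at 79.7, 64.0 and 86.9 CPM in the induced libraries. Again no induced value reached the controls. The log2 fold change was -0.59 (SE 0.12, edgeR adjusted p = 0.0396), so that it fell by 33.6%. The adjusted p (edgeR) was 0.136, 0.171 and 0.110 without control replicate 1, 2 or 3 and 0.115 and 0.0556 without induced replicate 1 or 2. COL6A6 passed without induced replicate 3 (edgeR adjusted p = 0.0132). Of this neighbouring pair COL6A6 was the abundant one, at 19.6 ± 2.43 TPM against 0.396 ± 0.114 TPM in controls (SD, n = 3 each).

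The chains of the classical molecule lay above 0 without passing the test. COL6A1 was at 44.6, 76.8 and 96.3 CPM in the controls and at 73.2, 111 and 120 CPM after induction, with a log2 fold change of 0.48 (95% interval -0.17 to 1.13, edgeR adjusted p = 0.417). COL6A2 was at 31.9, 53.0 and 62.3 CPM against 58.0, 78.6 and 100 CPM, with a log2 fold change of 0.69 (95% interval 0.073 to 1.30, edgeR adjusted p = 0.216). The groups overlapped for both genes, and the controls differed among themselves, with control replicate 1 lowest. Without that library the log2 fold changes were 0.22 for COL6A1 (edgeR adjusted p = 0.708) and 0.45 for COL6A2 (edgeR adjusted p = 0.405). COL6A3 was at 14.99, 16.72 and 14.24 CPM in the controls and at 22.68, 22.06 and 61.38 CPM in the induced libraries, which did not overlap. Its log2 fold change of 1.21 (SE 0.38) missed the threshold (edgeR adjusted p = 0.136). Induced replicate 3 decided both its size and its spread: without that library the log2 fold change was 0.55 with an adjusted p of 0.0153 from edgeR. With any other library left out, the adjusted p of COL6A3 was between 0.102 and 0.351 (edgeR).

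Collagens that coat fibrils with interrupted helices (FACIT) are decorators of fibrils, and 7 of 10 could be tested. None passed the test, 6 of the 7 had a log2 fold change below 0, and their median was -0.68, beside -0.00038 over all genes tested. COL19A1, the FACIT with the highest level and one of 3 genes of this class and the unclassed collagens named after their values were seen, was at 67.8, 67.8 and 68.6 CPM in the controls and at 41.8, 47.1 and 21.9 CPM in the induced libraries. Its induced values lay well below a narrow control range, and 85 of its exon bases (0.771%) are shared with LMBRD1 on the opposite strand. The log2 fold change was -0.88 (SE 0.24, edgeR adjusted p = 0.101). Without induced replicate 3 it was -0.61 with an adjusted p of 0.00484 from edgeR. With any other library left out, the adjusted p of COL19A1 was between 0.0841 and 0.300 (edgeR). COL12A1 was at 10.73, 10.84 and 10.49 CPM in the controls and at 5.64, 5.32 and 12.86 CPM after induction. Induced replicate 3 lay above the controls, and induced replicates 1 and 2 lay below them. The log2 fold change was -0.43 (edgeR adjusted p = 0.529) with induced replicate 3 and -0.96 (edgeR adjusted p = 0.00279) without it. With any other library left out, the adjusted p of COL12A1 was between 0.629 and 0.794 (edgeR). COL26A1, a collagen of no settled class, was at 24.0, 35.9 and 38.4 CPM in the controls and at 21.2, 21.3 and 18.9 CPM in the induced libraries. These groups did not overlap, and the log2 fold change of -0.68 (SE 0.17) had an adjusted p of 0.0763 from edgeR. Without control replicate 1, the lowest control, the adjusted p was 0.0251 (edgeR). It ran from 0.107 to 0.290 when any other library was left out (edgeR). The remaining FACIT and unclassed genes were below 1 TPM on average, with log2 fold changes from -1.65 (COL28A1) and -1.45 (COL14A1) to 0.53 (COL20A1). The multiplexin COL18A1, the source of endostatin, was at 6.64 ± 2.06 TPM in controls and 7.19 ± 1.38 TPM in induced cells (SD, n = 3 each), but 18.5% of its exon bases are shared with SLC19A1 on the opposite strand. The anchoring fibril gene COL7A1 and the network-forming COL8A1, COL8A2 and COL10A1 were each below 1 TPM, and their log2 fold changes of 0.69, 0.46, 0.088 and 0.11 did not pass the test.

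Chains of 1 molecule were then compared within each library as ratios of TPM, for 6 pairs, with exact two-sided permutation tests over the libraries that cannot go below p = 0.1. COL4A5 exceeded COL4A6 by 13.8, 13.0 and 13.2 times in the controls and by 9.62, 8.81 and 9.41 times in the induced libraries. The ratio was lower in all induced libraries, with a log2 difference of -0.52 (exact permutation p = 0.1, 0.2 after adjustment over the 6 pairs). COL5A1 to COL5A2 was 13.6, 19.4 and 20.8 in the controls and 23.5, 29.6 and 32.9 in the induced libraries. Here the induced ratios were all higher, with a log2 difference of 0.69 (exact permutation p = 0.1, adjusted 0.2). COL1A1 to COL1A2 was 166, 238 and 214 in the controls and 256, 293 and 285 in the induced libraries, a log2 difference of 0.45 (exact permutation p = 0.1, adjusted 0.2). In these 3 pairs the groups were separate, at the smallest p the design allows. COL4A1 to COL4A2 stayed between 0.888 and 1.28 in all 6 libraries, with a log2 difference of -0.082 (exact permutation p = 0.6, adjusted 0.6). COL6A1 to COL6A2 ran from 1.20 to 1.55, with a log2 difference of -0.19 (exact permutation p = 0.2, adjusted 0.3). COL6A3 to COL6A2 ran from 0.0626 to 0.168, with a log2 difference of 0.33 (exact permutation p = 0.5, adjusted 0.6). The groups overlapped in these latter pairs.

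**Figure D4:**
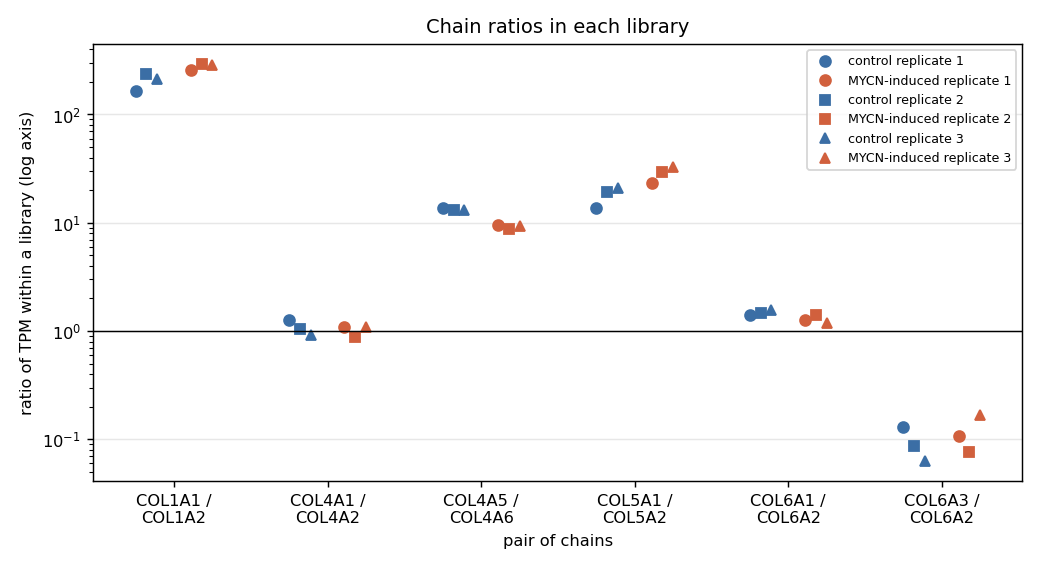
Ratio of TPM between chains of 1 molecule in each library, on a log axis (blue control, orange MYCN-induced), with a line at 1. The COL4A5 to COL4A6 ratio lies at 13.0 to 13.8 in the controls and 8.81 to 9.62 after induction, whereas COL4A1 to COL4A2 stays near 1 in both groups.

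Genes that make, carry, hold or cut collagen were described from a list of 69 genes in 8 roles, of which 63 were tested. Past the threshold, 10 were lower and 1 was higher, beside 2.38% lower and 1.02% higher among all 29086 genes tested. The median log2 fold change of the list was -0.0015, beside -0.00038 over all genes. The machinery inside the cell showed no called gene: none of 18 tested folding and modification genes and none of 7 export genes passed. Of the 18, 14 had a log2 fold change above 0, beside 49.9% of all genes, with a median of 0.12. Of the 7 export genes, 4 were above 0, with a median of 0.068. SERPINH1, the collagen chaperone HSP47, had a log2 fold change of 0.19 (edgeR adjusted p = 0.540), and P4HA1, a subunit of prolyl hydroxylase, of -0.17 (edgeR adjusted p = 0.434). PLOD2, a lysyl hydroxylase, had one of 0.22 (edgeR adjusted p = 0.774), and it turned to -0.17 without induced replicate 3.

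Partners of collagen in the matrix held the most calls, with 5 of 9 lower, beside 2.38% of all genes tested, and all 9 below 0. Decorin (DCN), which binds fibrils and limits their width, was at 240, 223 and 230 CPM in the controls and at 110, 109 and 79.9 CPM in the induced libraries. Its groups were far apart, with a log2 fold change of -1.21 (SE 0.12, edgeR adjusted p = 0.00465). Fibromodulin (FMOD), a related proteoglycan, was lower by a log2 fold change of -1.54 (SE 0.16, edgeR adjusted p = 0.00515), at 0.385 to 0.425 CPM against 1.10 to 1.32 CPM. Biglycan (BGN, -0.67), SPARC (-0.47), which binds collagen in basement membranes, and fibronectin (FN1, -0.71), on which fibrils are laid down, also fell on the log2 scale, with adjusted p from edgeR of 0.0171, 0.0214 and 0.0330. DCN and FMOD kept adjusted p under 0.05 in each of the 6 fits without 1 library. BGN lost the call without control replicate 2 or 3 or induced replicate 2 (adjusted p = 0.107, 0.0866 and 0.0523 from edgeR). SPARC lost it without control replicate 1, 2 or 3 or induced replicate 2 (0.0910, 0.137, 0.0836 and 0.0596 from edgeR), and FN1 when any 1 library other than induced replicate 3 was left out (0.0593 to 0.168 from edgeR).

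Outside the cell, 1 gene of propeptide removal, 1 cross-linking gene, 2 degradation inhibitors and 2 receptors passed the threshold. TLL2, a member of the tolloid family of proteases, was listed under propeptide removal. Of the 7 genes tested in that role, 5 had a log2 fold change above 0. Whether TLL2 itself acts on collagen was not tested. TLL2 was at 10.1, 9.27 and 9.84 CPM in the controls and at 2.28, 1.73 and 2.52 CPM in the induced libraries. This was the largest fall among the called genes of the list, with a log2 fold change of -2.16 (SE 0.15, edgeR adjusted p = 0.00176), and it held in each of the 6 fits without 1 library. LOXL4, a cross-linking enzyme, had a log2 fold change of -0.47 (edgeR adjusted p = 0.0399), while LOX had one of 0.34 (edgeR adjusted p = 0.314). The inhibitors of matrix metalloproteinases TIMP2 (-0.44) and TIMP4 (-0.92) fell on the log2 scale, with adjusted p from edgeR of 0.0208 and 0.0413. Of the 4 degradation inhibitors tested, the other 2 did not pass, with log2 fold changes of -1.11 and 0.49. None of 5 degrading enzymes passed the test, with log2 fold changes from -0.60 to 1.81.

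A pair of integrin subunits that form collagen receptors with ITGB1 moved in opposite directions. ITGA1, whose receptor prefers type IV collagen, was at 105, 98.3 and 96.1 CPM in the controls and at 56.8, 55.9 and 30.7 CPM in the induced libraries. ITGA2, whose receptor prefers fibrillar collagen, was at 8.39, 8.36 and 7.89 CPM in the controls and at 19.6, 17.8 and 40.7 CPM in the induced libraries. Neither pair of groups overlapped, and induced replicate 3 was the most extreme library for both. The log2 fold changes were -1.06 for ITGA1 (SE 0.21, edgeR adjusted p = 0.0406) and 1.66 for ITGA2 (SE 0.30, edgeR adjusted p = 0.0294). Without induced replicate 3 they were -0.82 (edgeR adjusted p = 0.00148) and 1.19 (edgeR adjusted p = 0.00158). Calls of LOXL4, TIMP4 and ITGA1 were lost when any 1 library other than induced replicate 3 was left out, with adjusted p from 0.0651 to 0.206 (edgeR). LOXL4 was also lost without a count filter (edgeR adjusted p = 0.0561), and ITGA1 among genes with at least 100 counts in every library (edgeR adjusted p = 0.0556). TIMP2 lost its call without control replicate 1, 2 or 3 or induced replicate 2 (0.0574 to 0.142 from edgeR), and ITGA2 without control replicate 1, 2 or 3 or induced replicate 1 (0.0621 to 0.146 from edgeR).

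**Figure D5:**
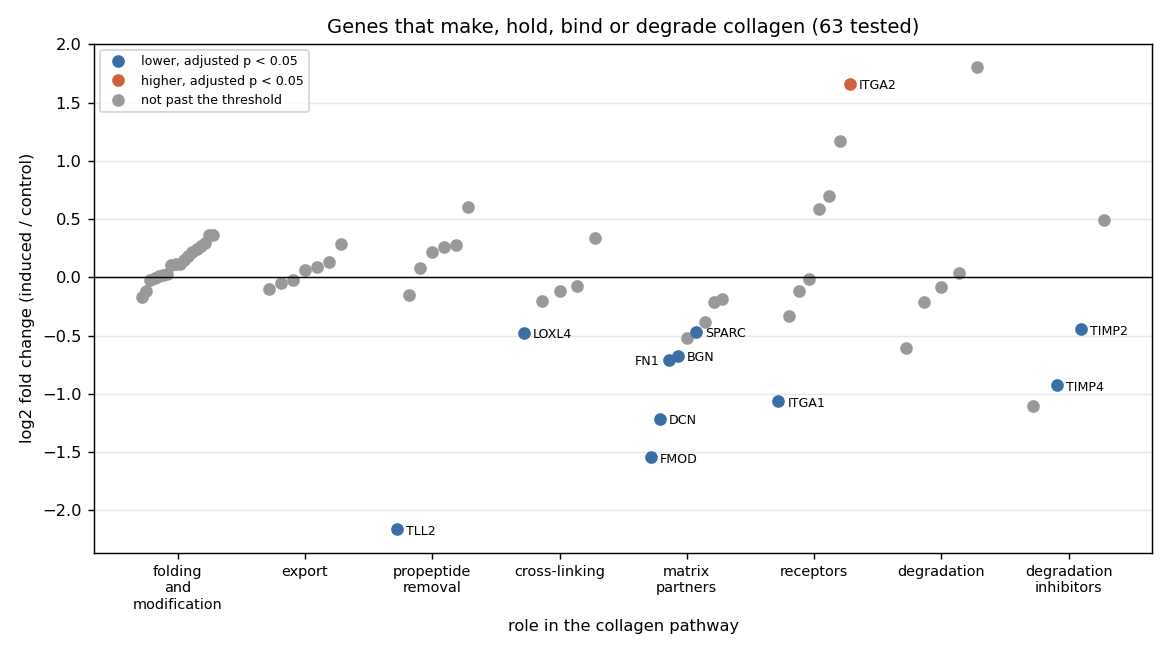
Log2 fold change (MYCN-induced over control) of the 63 tested genes of the collagen pathway list, by role, with 1 point per gene. Folding and export genes lie between -0.17 and 0.36 without a call, with 14 of 18 folding genes above 0. All 9 matrix partners lie below 0, and TLL2 and ITGA2 mark the ends of the called range at -2.16 and 1.66.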

How the data were processed

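Total RNA of 3 control and 3 MYCN-induced libraries was analysed. The authors deposited estimated counts per gene, without normalisation: per the file headers, read pairs aligned uniquely by STAR (2.7.1a in the submitters' processing notes) to GRCh38 were counted over exons with featureCounts 1.6.4, which shared pairs between overlapping genes in fractions and set no strand option. The submitters' notes name version 1.5.1, and the methods a strand option. Between 31.9% and 33.4% of values above 0 were not whole. Counts were used as deposited and read as unstranded, so genes with overlapping exons are uncertain (14 collagens, 11 of them with a gene on the opposite strand). The 92 spike-in rows were at 0, so they could not be used to scale levels to cells. Of the identifiers, 99.65% matched GENCODE 44, which gave names.

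Counts were rounded, and 29086 genes that reached 10 counts in 3 or more libraries entered edgeR 4.0.16 (quasi-likelihood, TMM, Benjamini-Hochberg over all genes, threshold 0.05, R 4.3.3). The biological coefficient of variation was 0.153, and replicates differed by more than counting noise (chi-square per gene from 12.1 to 145.6). Spread between libraries, more than depth, thus limited the precision, and for collagens below 1 TPM the counts limited it too. Tested on simulated counts of 28627 genes for this comparison, edgeR called 50.5% of 200 genes changed 2-fold and 10 unchanged genes, and DESeq2 called 60.5% and 39. TPM used the exon lengths in the files.

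The collagens, the pathway and marker lists (written from general knowledge), and the tests were chosen with earlier results of these data known. Every collagen past the threshold, the 3 with the highest TPM in each class, and their partner chains were named in full. Named pathway genes are those past the threshold, and SERPINH1, P4HA1, PLOD2, LOX, FN1 and SPARC. Alternatives were other normalisations, DESeq2 1.42.0, other count filters and thresholds, a replicate block, and leaving out each library.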

Additional observations from a re-analysis of the deposited data

How the results depend on the processing

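Of 660 values of single collagen and pathway genes recomputed under other settings, 26 changed sign, none of a gene past the threshold. The 5 lower collagens became 8 with DESeq2, 9 at an adjusted p under 0.1 and 1 at under 0.01, and 1 to 8 when 1 library was left out. The 1 higher collagen became 0 when scaled by library size only, under upper-quartile normalisation and at an adjusted p under 0.01, 2 with the replicate block, and 0 to 2 when 1 library was left out. In the pathway list the 10 lower genes became 3 at an adjusted p under 0.01 and 3 to 12 when 1 library was left out. The 1 higher gene became 2 with DESeq2, without a count filter and at an adjusted p under 0.1, 0 at under 0.01, and 0 to 5 when 1 library was left out. Over all genes, 298 higher and 692 lower calls (30.1% higher) became 904 and 1199 with DESeq2 (43.0% higher), 470 and 811 without a count filter, 227 and 404 with at least 100 counts in every library, 18 and 72 without control replicate 2, and 1060 and 1279 without induced replicate 3. No scaling moved the median of all genes by more than 0.034 (log2). COL11A2 (0.020) gave -0.029 with library size only, -0.017 with upper-quartile normalisation, -0.051 with the replicate block, and -0.41 to 0.25 when 1 library was left out. COL27A1 (-0.0063) gave 0.0089 with DESeq2-type size factors and with DESeq2, 0.0069 without a count filter, and -0.20 to 0.26 when 1 library was left out. COL4A5 (0.016) gave -0.016 with library size as the sole scaling, -0.017 with the upper quartile, and -0.041 to 0.070 when 1 library was left out. In the fits without 1 library the log2 fold changes ran for COL2A1 from -0.32 to 0.33, COL9A3 from -0.39 to 0.14, COL18A1 from -0.16 to 0.33, COL17A1 from -0.23 to 0.12, COL8A2 from -0.080 to 0.20, COL10A1 from -0.043 to 0.23 and PLOD2 from -0.17 to 0.47, and the log2 difference of the COL4A1 to COL4A2 ratio (-0.082) from -0.19 to 0.042. Same-numbered libraries were not shown to belong together: the deviations from the group means correlated at 0.216, -0.019 and 0.074 for numbers 1, 2 and 3, and 3 of 6 libraries were closest to their own number. With the replicate number as a block, 7 collagens passed, 5 of them among the 6 reported: COL4A6 was lost (edgeR adjusted p = 0.0651) and COL6A1 and COL6A2 were gained (adjusted p = 0.0400 and 0.0144 from edgeR), in the pathway list LOXL4 was lost (edgeR adjusted p = 0.0756), and calls over all genes came to 265 higher and 575 lower. The cause of these moves was not tested. The spread between 3 libraries a group, more than depth, limits what could be called, and collagens below 1 TPM are limited by their counts too.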
